A study of Homo sapiens with 9 samples.

Results

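The genes described here are the 10 AP-1 and EGR immediate early genes JUN, JUNB, JUND, FOS, FOSB, FOSL1, FOSL2, EGR1, EGR2 and EGR3, chosen by name from the 26485 gene models of the count tables. JUN was set beside its partners to see whether single cells held more of a wider early response. RNA of HAP1, a near-haploid, adherent human cell line derived from a chronic myeloid leukaemia line, was isolated with NAxtra magnetic nanoparticles and sequenced after SMART-Seq Stranded amplification. All libraries were from wild-type cells with no treatment named. The cells were spun down in the cold, resuspended in ice-cold PBS and sorted by FACS into lysis buffer. How the adherent cells were detached is not given in the paper. The 4 groups were 3 single cells, 2 libraries of 10 cells, 2 of 100 cells and 2 of 1000 cells. The labels call the libraries biological replicates but name no separate cultures, so p-values measure only the spread between these libraries, which may be technical. No library came from cells left unsorted, and harvest and sorting were shared by all 9.

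AP-1 is a dimer of basic leucine zipper proteins. JUN proteins pair with each other or with FOS proteins, whereas FOS proteins need a JUN partner to bind DNA. The EGR proteins are zinc finger factors that bind GC-rich sites. Many of these genes are switched on within minutes of growth factors, stress or handling, without new protein synthesis, through MAP kinases acting on SRF, its TCF partners and CREB/ATF factors, and their mRNAs decay fast.

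Totals ranged from 42842970 to 61645865 counts per library. Values are CPM (counts per 1000000, with library sizes adjusted by TMM factors), and levels between genes are compared per kilobase of exon (RPKM). Reads were amplified by PCR without molecular identifiers, so intervals and limits drawn from counts cover counting error only. All 11 blood cell markers examined were below 1 CPM on average, with a sum of 0 to 2.80 CPM in single cells and of 0.0692 to 1.38 CPM in the other libraries, and 4 were at 0 counts in every library. All 4 genes chosen to mark HAP1 were present, but they had been chosen as genes expressed in this line. Of 10 fibroblast markers 7 were below 1 CPM on average, and PDGFRA was the highest at 109 CPM. Of 9 plasma cell markers 8 were below 1 CPM, and SDC1 was the highest at 50.4 CPM. Of 15603 genes tested, 25.5% stood apart from the 6 libraries of more cells in Single Cell Rep 1, 25.5% in Single Cell Rep 2 and 31.6% in Single Cell Rep 3, which therefore lay farthest from them. A gene stood apart when its log2 CPM lay outside the range of those 6 libraries and differed from their mean by over 1.

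Sequences before the RefSeq start are shown for the 4 members whose promoters held a match to a site for CREB/ATF factors or SRF, since these are the classical routes of early induction. They come from RefSeq on GRCh38.p14, in which 8 of the 10 members had an entry running from 250 bases before to 50 bases after the start. Sites outside this window were not searched, so a member without a match here, such as FOS for SRF, may hold the site farther away. Capitals mark the match, each sequence runs 5′ to 3′ on the strand of its gene, and both strands were searched.
JUN, minus strand, chr1:58784107-58784144: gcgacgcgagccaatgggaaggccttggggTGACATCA
JUND, minus strand, chr19:18281795-18281852: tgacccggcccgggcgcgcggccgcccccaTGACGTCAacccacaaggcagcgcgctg
EGR1, plus strand, chr5:138465344-138465425: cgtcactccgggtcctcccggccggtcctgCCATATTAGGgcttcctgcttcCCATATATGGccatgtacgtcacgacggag
EGR2, minus strand, chr10:62816408-62816467: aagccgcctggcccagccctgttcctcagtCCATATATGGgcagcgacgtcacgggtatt

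The JUN promoter held TGACATCA, a variant of the cyclic AMP response element, which 2.61% of 35116 RefSeq promoter windows also held. The JUND promoter held the full element TGACGTCA, present in 1.85% of windows. The CArG box, the site of SRF, occurred at 2 places before the RefSeq start of EGR1 and at 1 place before that of EGR2, and in 1.29% of windows. JUNB, FOS and FOSB had TATAAA, found in 11.5% of windows, and FOSL2 had the AP-1 site TGANTCA, found in 7.71%. The EGR site GCGTGGGCG, in 0.795% of windows, was found in none of the 8. The RefSeq start can differ from that of the counted model. For EGR2 it lies 2801 bases downstream of the 5′ end of the model, so the CArG box is inside an intron of that model, and for JUN it lies 66 bases downstream, so that 7 of the 8 bases of the match are in the exon of the model. The TATAAA of FOS is also within the exon of its model, and the other matches lie outside theirs. These are matches of letters and were not measured as binding.

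In the 6 libraries of more cells, EGR1 had the highest per-length level of the 10 genes, at 29.5 ± 5.36 RPKM (SD, n = 6). JUND followed at 18.4 ± 1.11 RPKM, then FOSL1 at 10.1 ± 1.92 RPKM, and none of these ranges met. JUN at 5.23 ± 0.466 RPKM and JUNB at 5.00 ± 1.01 RPKM did not differ beyond their spread. FOS, the partner that gave its name to the family, was lower at 1.88 ± 0.404 RPKM, and FOSL2 was at 0.822 ± 0.155 RPKM. FOSB, EGR3 and EGR2 lay lowest, between 0.334 and 0.421 RPKM on average, with ranges that overlapped from each to the next. All 10 genes were detected in all 6 of these libraries.

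**Figure D1:**
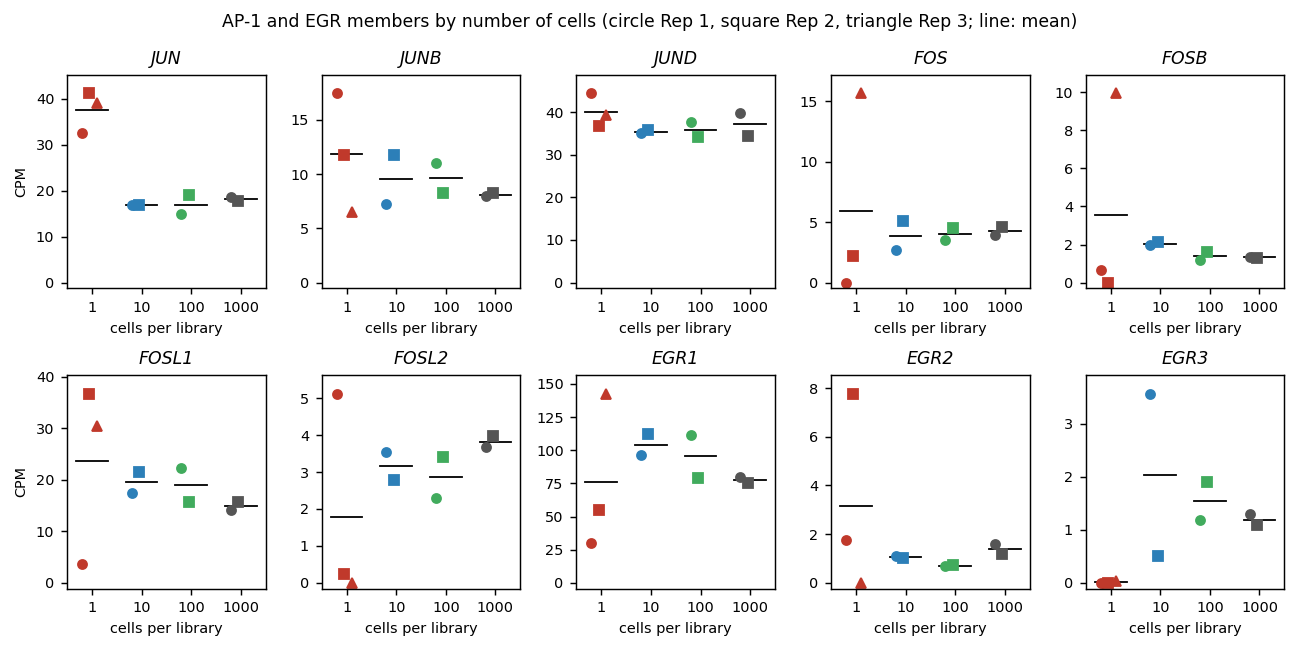
CPM of each member (y axis, linear, a scale per panel) in every library by number of cells (x axis), with points for libraries and a line for the mean. The 3 single cells lie at 32.6 to 41.2 CPM for JUN, above all 6 other libraries at 14.8 to 19.1 CPM, while the single cells of FOS, FOSB, FOSL1, FOSL2 and EGR2 lie on both sides of the others.

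JUN, the founding AP-1 subunit, reached 32.6, 41.2 and 39.0 CPM in Single Cell Rep 1, 2 and 3. It was at 16.8 and 17.0 CPM in the 10-cell libraries, 14.8 and 19.1 CPM in the 100-cell libraries and 18.7 and 17.9 CPM in the 1000-cell libraries. Every single cell was above every other library, with means of 37.6 ± 4.47 CPM (SD, n = 3) and 17.4 ± 1.55 CPM (SD, n = 6). The log2 fold change was 1.11 with a standard error of 0.16 and an adjusted p of 0.0131 by edgeR's quasi-likelihood test. An exact two-sided permutation test of its mean log2 CPM gave p = 0.0119, the smallest that 84 choices of 3 libraries allow. This p only restates that every single cell was above every other library, as in 4.98% of all genes. EGR3, with every single cell below, had the same permutation p. JUN had been singled out with earlier results of these data known, so neither its edgeR p nor its permutation p is independent evidence. The adjusted p by edgeR rose to 0.0569 without 100 Cell Rep 2, 0.0593 without 1000 Cell Rep 1 and 0.0590 without 1000 Cell Rep 2, while the log2 fold change stayed at 1.04 to 1.20 whichever library was left out. Without these libraries no gene of the table passed the threshold.

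The other JUN genes lay closer to the pooled libraries. JUND, the constitutive member of the family, had 44.4, 36.7 and 39.2 CPM in single cells, beside 34.2 to 39.8 CPM in the 6 others. The groups overlapped, and the log2 fold change was 0.15 with a standard error of 0.13 and an edgeR adjusted p of 0.543. JUNB, which is rapidly induced and can counter JUN, had 17.4, 11.7 and 6.49 CPM in single cells, beside 7.22 to 11.8 CPM in the others. Single Cell Rep 1 was above the range of the others and Single Cell Rep 3 below it, and the edgeR adjusted p was 0.540 at a log2 fold change of 0.39 (standard error 0.34).

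JUN therefore took a larger share of its family. Of the summed per-length level of JUN, JUNB and JUND, JUN made up 29.9% ± 5.64 (SD, n = 3) in single cells and 18.3% ± 1.99 (SD, n = 6) in the others, with a lowest single cell of 23.4% and a highest other library of 20.7%. JUND made up 53.4% in single cells and 64.3% in the others, and JUNB 16.7% and 17.4%. The ratio of JUN to JUND per length was 0.434 to 0.662 in single cells and 0.233 to 0.330 in the others. These shares use the same JUN values as the test above and are given as description.

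**Figure D2:**
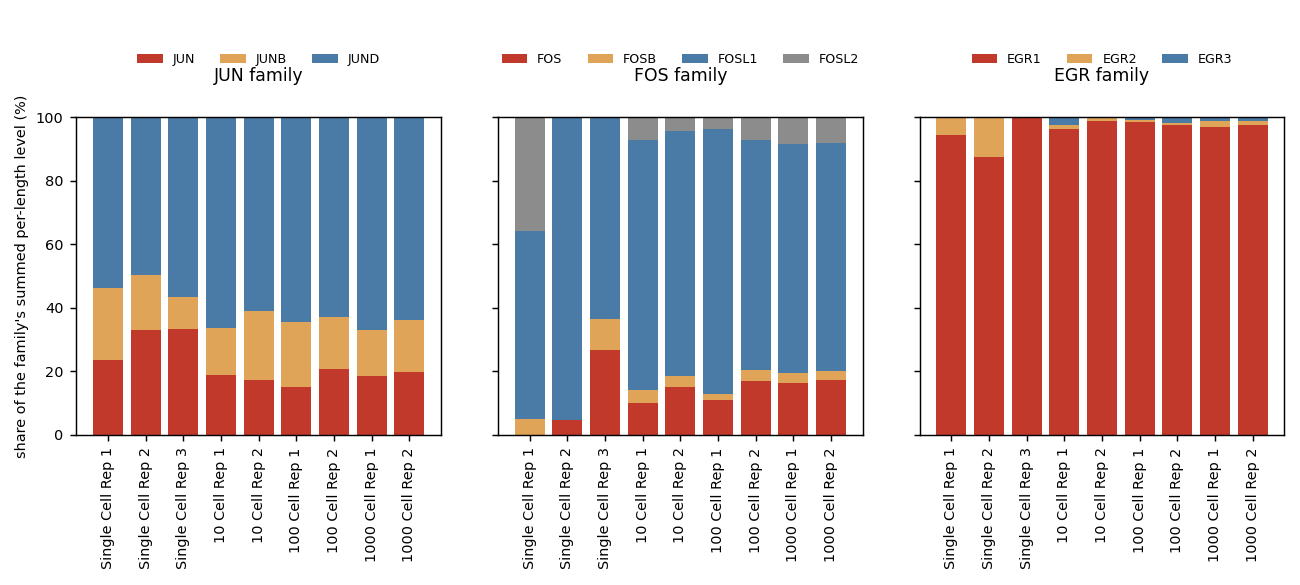
Share (y axis, percent) of each gene in the summed per-length level of its family, for JUN, FOS and EGR genes, in each of the 9 libraries (x axis). JUN takes 23.4% or more in each single cell and 20.7% or less in the others, and the FOS family changes its makeup from 1 single cell to the next.

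The FOS genes did not follow JUN. FOS levels were 0, 2.24 and 15.7 CPM in Single Cell Rep 1, 2 and 3, beside 2.67 to 5.12 CPM in the other libraries. FOSB, its close relative, was at 0.657, 0 and 9.94 CPM against 1.20 to 2.11 CPM. For both genes Single Cell Rep 3 was the highest of all 9 libraries and the other single cells were below all 6 libraries of more cells. The edgeR adjusted p was 0.810 for FOS, at a log2 fold change of 0.55 (standard error 1.10), and 0.613 for FOSB, at 1.15 (standard error 1.19). Without Single Cell Rep 3 the fold changes turned to -1.86 for FOS and -2.27 for FOSB.

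FOSL1, also called FRA1, was the most abundant FOS gene per length, with 76.1% ± 4.59 of the family (SD, n = 6) in the libraries of more cells. In single cells it was at 3.73, 36.7 and 30.3 CPM, against 14.1 to 22.3 CPM, so Single Cell Rep 1 lay below the range and the others above it. The edgeR adjusted p was 0.672 at a log2 fold change of 0.40 (standard error 0.49). Leaving out Single Cell Rep 1 gave a log2 fold change of 0.91 with an adjusted p of 0.0173. That fit called 17.8% of all genes. Without Single Cell Rep 2 the log2 fold change was -0.06.

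FOSL2, or FRA2, had 5.12, 0.235 and 0 CPM in single cells, beside 2.30 to 3.96 CPM in the others. It was highest in Single Cell Rep 1, the cell in which FOS was at 0 counts and FOSL1 lowest, and it made up 35.8% of the FOS family there. The edgeR adjusted p was 0.720 at a log2 fold change of -0.87 (standard error 1.22). Leaving out Single Cell Rep 1 gave -4.78 with an adjusted p of 0.0231, in a fit that called 17.8% of all genes.

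EGR1, a zinc finger factor and a standard readout of early induction, stood at 29.99, 54.6 and 143 CPM in Single Cell Rep 1, 2 and 3. It was at 96.0 and 113 CPM in the 10-cell libraries, 112 and 79.3 CPM in the 100-cell libraries and 80.0 and 75.3 CPM in the 1000-cell libraries. Single Cell Rep 1 and 2 were below all 6 and Single Cell Rep 3 above all 6, opposite to JUN in the first 2 cells. The log2 fold change was -0.29 with a standard error of 0.37 and an edgeR adjusted p of 0.685. Leaving out Single Cell Rep 3 gave -1.13 with an adjusted p of 0.0162, in a fit that called 15.0% of all genes. Without Single Cell Rep 1 the log2 fold change was 0.09. The ratio of EGR1 to JUN per length was 0.975 to 3.87 in single cells and 4.40 to 7.98 in the others. It uses the same JUN values as the test above, which were higher in every single cell, and is given as description only.

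EGR2, known from hindbrain and Schwann cell development, had 1.76, 7.77 and 0 CPM in single cells, beside 0.677 to 1.59 CPM in the others. Single Cell Rep 2 was the highest library and Single Cell Rep 3 the only one at 0 counts. The edgeR adjusted p was 0.441 at a log2 fold change of 1.59 (standard error 1.15). Without Single Cell Rep 3 the fold change was 2.18 with an adjusted p of 0.0366, in a fit that called 15.0% of all genes. Without Single Cell Rep 2 the fold change was -0.26.

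EGR3, a target of EGR1 and of calcium signalling in other cells, had 0, 0 and 2 counts in the single cells. The other libraries had 155 and 25 counts with 10 cells, 61 and 100 counts with 100 cells and 56 and 68 counts with 1000 cells, or 0.508 to 3.57 CPM. All single cells were below all others, and the mean of the others was 123 times the pooled single-cell level, with a 95% Poisson interval of 34.1 to 1017 from the 2 counts. It passed edgeR's test as lower with an adjusted p of 0.0256, which rose to 0.0693 without 100 Cell Rep 2, 0.0678 without 1000 Cell Rep 1 and 0.0672 without 1000 Cell Rep 2. In the libraries of more cells a level is an average over cells, so a low share of cells holding EGR3 mRNA cannot be told apart from a low amount per cell.

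Across the 10 members, 1 was called higher and 1 lower by edgeR in single cells against the 6 other libraries. Of all 15603 genes tested, 2.22% were called higher and 4.45% lower. At an unadjusted p under 0.05 the members numbered 2 and all genes 3826, or 24.5%. The fitted log2 fold change was above 0 for 7 of 10 members, with a median of 0.40 against 0.01 for all genes. This count rests on how the cells are averaged and on single libraries. Without Single Cell Rep 3 it was 5 of 10 with a median of -0.06, and without Single Cell Rep 2 it was 5 of 10 with a median of 0.07. By the difference of mean log2 CPM it was 3 of 10, with a median of -0.46 against -0.14 for all genes. JUN was the only member with single cells all above the others, as were 4.98% of all genes, and EGR3 the only one with single cells all below, as were 10.0%.

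**Figure D3:**
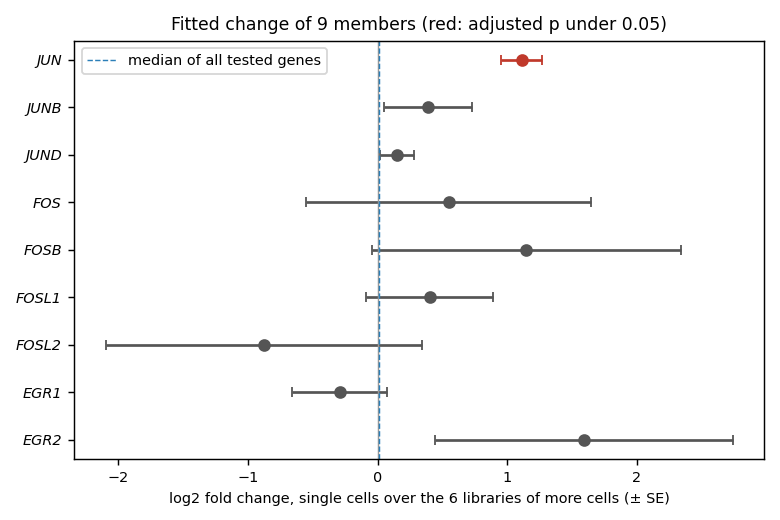
Fitted log2 fold change (x axis) of 9 members in single cells over the 6 libraries of more cells, with bars for the standard error and a dashed line for the median of all genes. JUN at 1.11 has a standard error of 0.16, and the other 8 members have adjusted p of 0.441 or more (EGR3, with 2 counts in single cells, is not drawn).

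Against single groups, no gene of the table passed edgeR's threshold, members included: 0% of 15394 genes for single cells against 1000 cells, 0% of 15098 for single cells against 10 cells, 0% of 15449 for 10 against 1000 cells and 0% of 15597 for 100 against 1000 cells. At an unadjusted p under 0.05 these comparisons held 1218, 634, 1735 and 314 genes, of which 2, 2, 2 and 0 were members. DESeq2's Wald test called 172, 100, 193 and 1 genes, or 1.02%, 0.561%, 1.96% and 0.00494% of those it tested, with JUN among them in both comparisons of single cells and EGR1 in 10 against 1000 cells. The comparisons of single cells share those cells and are not independent. JUN differed by 1.04 on the log2 scale from 1000 cells (edgeR adjusted p = 0.272) and by 1.15 from 10 cells (edgeR adjusted p = 1.00).

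Between 10 and 1000 cells, DESeq2 gave an adjusted p to JUN, JUND, FOSL1 and EGR1 alone among the members. Of these it called EGR1, and the other members were not tested by it. The mean of EGR1 was 104 ± 11.7 CPM with 10 cells, 95.5 CPM with 100 cells and 77.6 ± 3.33 CPM with 1000 cells (SD, n = 2). The 10-cell libraries were above the 1000-cell libraries by 0.43 on the log2 scale (standard error 0.10), with an adjusted p of 0.318 by edgeR and 0.00772 by DESeq2. JUN was at 16.9, 17.0 and 18.3 CPM on average in the same groups, which differed by less than the spread of the 100-cell libraries.

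The members were then taken cell by cell. Of 30 values, 17 stood apart from the 6 libraries of more cells, 6 above and 11 below. In Single Cell Rep 1 none of the 10 members stood above and FOS, FOSB, FOSL1, EGR1 and EGR3 stood below, beside 9.32% of all genes above and 16.2% below. In Single Cell Rep 2, JUN, FOSL1 and EGR2 stood above and FOSB, FOSL2 and EGR3 below, beside 8.27% and 17.2% of all genes. In Single Cell Rep 3, JUN, FOS and FOSB stood above and FOSL2, EGR2 and EGR3 below, beside 10.6% and 21.0%. No pair of single cells therefore had the same set of members above the others, and the median difference of the members was -0.45, -0.36 and 0.38 on the log2 scale in the 3 cells, against -0.07, -0.08 and -0.11 for all genes.

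**Figure D4:**
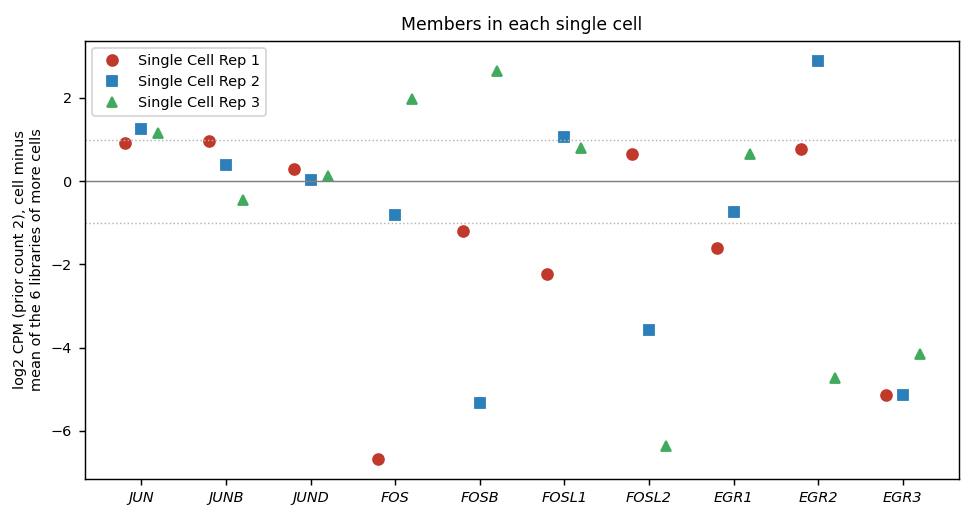
Difference in log2 CPM (y axis, prior count 2) between each single cell and the mean of the 6 libraries of more cells, for each member (x axis), with dotted lines at 1 and -1. The 3 cells lie together for JUN and JUND and apart for FOS, FOSB, FOSL1, FOSL2, EGR1 and EGR2.

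Of the 5 members of 1 to 10 CPM on average, 3 were at 0 counts in 1 single cell and high in another. FOS, FOSB, FOSL2 and EGR2 were each at 0 counts in 1 of the 3 single cells. By counting error alone, a count of 0 allows up to 0.0575 to 0.0588 CPM in these libraries. This limit does not cover mRNA lost before amplification, which was not measured. Genes detected numbered 13968 to 14478 in the single cells and 16283 to 18634 in the other libraries. FOS, FOSB and EGR2 also lay above all 6 libraries, and over 1 above their mean on the log2 scale, in another single cell. FOSL2 was at most 0.66 above that mean, and EGR3 was high in none. Among all 3586 tested genes of 1 to 10 CPM, 21.2% were at 0 counts in exactly 1 single cell and 16.1% combined a 0 with such a high value. Genes of this level with all 3 cells detected made up 72.2%, a class that held none of the 5 members of this level.

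The abundant members differed in how evenly they were found. The SD of log2 CPM over the 3 single cells was 0.18 for JUN and 0.14 for JUND, against a median of 0.48 for 7535 tested genes of 10 to 100 CPM, and only 9.79% and 6.12% of those genes had a smaller one. FOSL1 had an SD of 1.82 and EGR1 of 1.13, larger than in 97.8% and 91.0% of them. JUNB was between at 0.71. Over all 9 libraries the log2 levels of FOS and EGR1 correlated at r = 0.89 and those of JUN and EGR1 at r = -0.37, as a description of 9 libraries dominated by the spread of the single cells.

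JUN, JUNB and JUND are each a gene of a single exon, and the files give each as 1 exon block, so their reads hold no splice junction. On hg38, JUN lies at 58780791 to 58784113 of chromosome 1, JUNB at 12791496 to 12793311 and JUND at 18279694 to 18281656 of chromosome 19, and no other model overlaps their exons. Among genes of at least 10 CPM, 6.67% of 300 models with 1 block were called higher in single cells and 1.00% lower, against 2.99% and 2.98% of 9575 models with several blocks. The median log2 fold change was 0.26 and 0.02. Over all levels the order turned, with 1.96% of 1224 models with 1 block called higher and 5.39% lower, against 2.25% and 4.37% of 14379 models with several blocks. DNase treatment is stated for every library, and the part of the number of exon blocks in the result for JUN was not tested.

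The other genes of the pathway were read from 9 lists. Of 150 tested list members, 3 were called higher and 2 lower by edgeR, or 2.00% and 1.33%, below the shares of all genes. Like JUN, none of these 5 was called without 100 Cell Rep 2, 1000 Cell Rep 1 or 1000 Cell Rep 2, when no gene passed. Among 36 other immediate early genes none was called by edgeR and 4 had an unadjusted p under 0.05, as did 24.5% of all genes. A fold change above 0 was found for 24 of the 36, with a median of 0.22. DESeq2 called 3 of them higher, and 18.0% of all genes in either direction. MYC, a growth regulator, had 710, 764 and 1396 CPM in single cells against 753 to 984 CPM, and MCL1, a short-lived survival protein, at 164, 129 and 98.0 CPM against 156 to 165 CPM. KLF4, a zinc finger factor, was at 87.6, 6.55 and 143 CPM against 23.2 to 48.1 CPM, so that it was low in Single Cell Rep 2 and high in both other cells.

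Cell by cell, other immediate early genes also went both ways. In Single Cell Rep 3, 27.8% of the 36 stood above the 6 libraries and 16.7% below, with a median difference of 0.48 on the log2 scale, beside 10.6% and 21.0% of all genes in that cell. In Single Cell Rep 1, 13.9% stood above and 27.8% below, beside 9.32% and 16.2% of all genes. In Single Cell Rep 2 the shares were 11.1% and 27.8%, beside 8.27% and 17.2%, and the medians of these cells were -0.19 and -0.06. The cell with the highest FOS, FOSB and EGR1 was thus the cell with the most other early genes above the pooled libraries, at 10 of 36, against 5 and 4 in the other single cells, and also the cell with the most genes apart in the whole table.

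Upstream kinases and cofactors showed no called gene by edgeR. Among all genes 24.5% had an unadjusted p under 0.05 and DESeq2 called 18.0% of 17215, and the counts in these lists are to be read against those shares. Of 25 MAP kinase cascade genes 6 had an unadjusted p under 0.05 and DESeq2 called 4, and RPS6KA1, the kinase RSK1, was at 14.4, 15.9 and 19.3 CPM in single cells against 23.4 to 26.2 CPM (log2 fold change -0.60, edgeR adjusted p = 0.0594). MAP2K2, the kinase MEK2, was at 113 to 150 CPM against 114 to 141 CPM. Of 16 SRF, TCF, CREB and EGR cofactors 3 had an unadjusted p under 0.05 and DESeq2 called 1, and the SRF coactivator MKL2 was at 75.8 to 164 CPM against 69.6 to 81.5 CPM. The acetyltransferases CREBBP and EP300 had fold changes of 0.13 and 0.12 on the log2 scale, with edgeR adjusted p of 0.329 and 0.484.

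Of 16 MAP kinase phosphatases and feedback inhibitors, edgeR called 1 higher and 1 lower, beside 2.22% and 4.45% of all genes. DESeq2 also called 1 higher and 1 lower, beside 18.0% of all genes in either direction. An unadjusted p under 0.05 was found for 2 of the 16, beside 24.5% of all genes. DUSP9, a phosphatase of MAP kinases, was at 108, 86.1 and 97.3 CPM in single cells against 61.4 to 84.4 CPM, and rose by 0.51 on the log2 scale (edgeR adjusted p = 0.0404). ERRFI1, an inhibitor of the EGF receptor, was at 0.521, 0.451 and 0.460 CPM against 3.47 to 5.97 CPM, and fell by 3.25 (edgeR adjusted p = 0.0185). The other 14 genes of this list were not called by edgeR. DUSP7, DUSP16 and SPRED2, which also restrain MAP kinase signalling, had log2 fold changes of 0.11, -0.31 and 0.32 with edgeR adjusted p of 0.752, 0.331 and 0.358.

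Of 15 mRNA decay and protein turnover factors 2 rose, where 2.22% of all genes did. ZFP36L1, which binds AU-rich elements and speeds mRNA decay, was at 50.6, 43.9 and 38.6 CPM in single cells against 21.1 to 28.7 CPM, a log2 fold change of 0.81 (edgeR adjusted p = 0.0249). DET1, part of a ubiquitin ligase known to target JUN, was at 22.8, 23.8 and 47.3 CPM against 14.5 to 18.9 CPM, a log2 fold change of 0.92 (edgeR adjusted p = 0.0419). In both, as in JUN and in 4.98% of all genes, every single cell was above every other library. HNRNPD, CNOT1 and COPS5 had log2 fold changes of 0.04, 0.26 and 0.27 with edgeR adjusted p of 0.695, 0.0546 and 0.305.

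Partners and targets were not called by edgeR. Of 12 AP-1 bZIP partners 2 had an unadjusted p under 0.05, DESeq2 called 0 and the median log2 fold change was -0.02, and ATF2, NFE2L1 and MAF were at -0.21, -0.26 and 1.17 with edgeR adjusted p of 0.703, 0.133 and 0.108. Of 17 AP-1 target genes 7 were abundant enough to test, of which 0 had an unadjusted p under 0.05 and DESeq2 called 0, and CCND1, TIMP1 and VEGFA were at 0.71, 0.30 and 0.17 on the log2 scale. Of 10 EGR target genes 3 had an unadjusted p under 0.05 and DESeq2 called 1, and F3 and FN1 were at 1.13 and -0.17. Of all genes, 24.5% had an unadjusted p under 0.05 and DESeq2 called 18.0%.

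Heat shock genes that answer cell dissociation gave 1 call in 13 by edgeR, and it was downward. Of all genes, edgeR called 2.22% higher and 4.45% lower. DESeq2 called 1 of the 13 higher and 1 lower, beside 18.0% of all genes in either direction. An unadjusted p under 0.05 was found for 3 of the 13, beside 24.5% of all genes. HSP90AB1, a chaperone, was at 3425, 3440 and 3254 CPM in single cells against 3755 to 3971 CPM, and fell by 0.19 on the log2 scale (edgeR adjusted p = 0.0249). HSPA8 and HSP90AA1 were at -0.06 and -0.10 with edgeR adjusted p of 0.609 and 0.292, and HSPB1 was at 0.36 with an edgeR adjusted p of 0.0507.

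**Figure D5:**
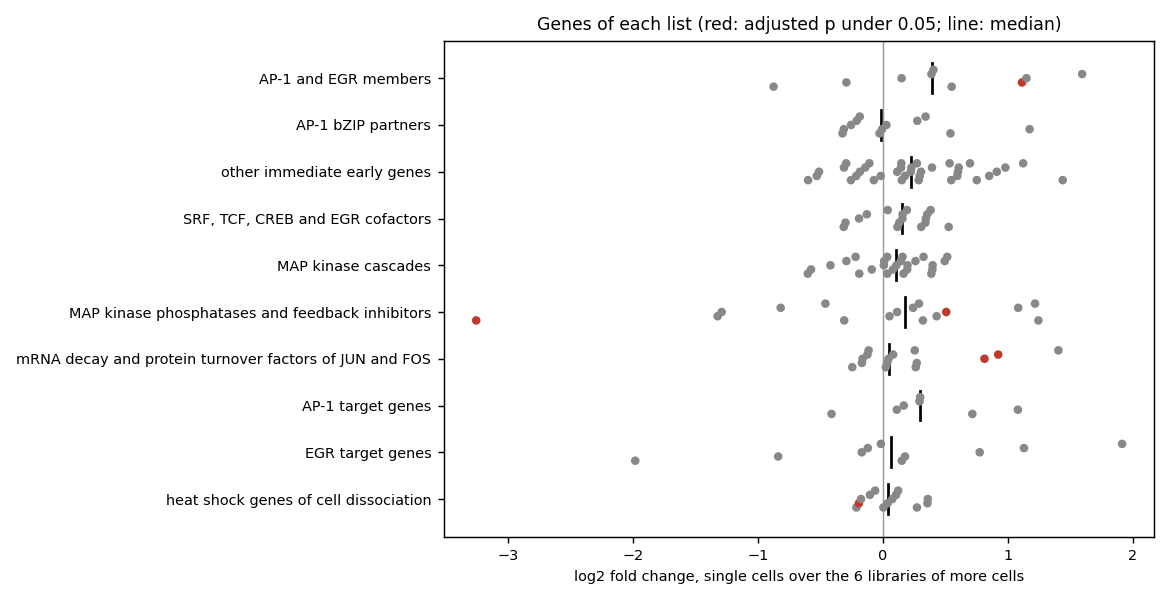
Fitted log2 fold change (x axis) of every tested gene of the members and of the 9 lists (rows), in single cells over the 6 libraries of more cells, with red points at an adjusted p under 0.05 and a line at each median. Red points are JUN and 5 list genes, and EGR3 is not drawn but counts in the members' median of 0.40.

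The genes whose log2 CPM followed JUN most closely over the 9 libraries, among 9870 genes of at least 10 CPM, were ZFYVE19 (Pearson r = 0.99), IFT52 (0.98), RPS19 (0.98), ZBTB5 (0.98) and DUS1L (0.98), none of which is in a list above. For JUND they were TTLL5 (0.89), MYD88 (0.87), ABHD5 (0.86), SIRT2 (0.86) and PPP1R9A (0.86). For EGR1 they were B4GALT2 (0.98), PIK3CD (0.98), RBM12 (0.98), TBCD (0.97) and NKIRAS2 (0.97). With 9 points, of which 3 are single cells, and so many genes searched, such values describe these libraries only.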

How the data were processed

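The upstream tools were, per the labels and the methods of the authors, FastQC 0.11.9 for read quality, Trim Galore 0.6.7 for adapters, HISAT2 2.2.1 for alignment to hg38, SAMtools 1.16.1 for sorting and featureCounts (Subread 2.0.6) for counting. The deposited values are whole read counts per gene. Both mates of a pair were counted, on the reverse strand, and multi-mapping reads were left out. The annotation release is not given in the sources used here.

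Counts were analysed in R 4.3.3 with edgeR 4.0.16 (TMM, filterByExpr, quasi-likelihood test, Benjamini-Hochberg adjusted p under 0.05 over all tested genes) and, as an alternative, DESeq2 1.42.0. Log2 CPM used a prior count of 2. All 10 members passed the filter. The members, gene lists and tests were chosen with earlier results of these data known. Named list genes were those called, the 2 of highest CPM, and beyond them the largest change at 10 CPM or more; 2 genes that this rule names are not reported here. For JUN, JUND and EGR1, the 5 genes most alike were named. On data simulated from single cells against the 6 other libraries with 200 changed genes of 15288, 50% of genes changed by 1 (log2) and 86% of those changed by 2 were found by edgeR, with 4 false calls. The simulation gave both groups the same spread and changed only genes above a minimum count. In the data, genes of 10 to 100 CPM had a median SD of log2 CPM of 0.48 in single cells and 0.15 in the 6 others. These rates therefore need not hold for the data.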

Additional observations from a re-analysis of the deposited data

Results flagged for a closer look

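Among the 6 libraries of more cells, which differ in number of cells, a single library lay far from the other 5 for 3 of 42 genes examined. All were list genes and none a member. MAP2K2 was highest in 10 Cell Rep 1 at 141 CPM, SPRED2 was highest in 10 Cell Rep 2 at 65.9 CPM, and CCND1 was highest in 100 Cell Rep 1 at 15.1 CPM. In each, the gap to the nearest library took up most of the range of the 6 values, past a limit (Dixon) that chance passes in about 1 of 20 groups. With 42 genes examined, a few would pass this limit by chance.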

How the results depend on the processing

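The log2 fold change of JUN in single cells against the 6 other libraries was 1.11 and above 0 under every alternative run, but its call was not stable. With all 9 libraries in 1 fit it was 1.11 with an adjusted p of 0.102, and members and genes called fell to 0 and 0. Leaving out 1 library gave 1.04 to 1.20 for JUN, 0 to 4 members called and 0 to 3188 genes called (4 members beside 17.8% of all genes without Single Cell Rep 1 and beside 15.0% without Single Cell Rep 3), against 2 members and 1041 genes. In alternatives chosen after seeing the data, JUN was at 1.09 without both 10-cell libraries, 1.10 without both 100-cell libraries and 1.15 without both 1000-cell libraries, with adjusted p of 0.0689, 0.123 and 0.179, and 0 members and 0 genes were called in each. The genes called numbered 3094 with DESeq2, 682 without a filter, 576 with at least 10 CPM in 2 libraries (1 member, JUN) and 2077 with the replicate block. The cause was not tested.

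Fold changes reversed for low or uneven members. Over the fits that left out 1 library, FOS ranged from -1.86 (without Single Cell Rep 3) to 1.13, FOSB from -2.27 (without Single Cell Rep 3) to 1.74, FOSL1 from -0.064 (without Single Cell Rep 2) to 0.91, EGR1 from -1.13 to 0.086 (without Single Cell Rep 1) and EGR2 from -0.26 (without Single Cell Rep 2) to 2.18. With the replicate block, FOS was at -2.52, FOSB at -2.63 and FOSL1 at -0.11. EGR1 was called lower at -1.15, beside 13.3% of all genes called in either direction. No other library shares the number of Single Cell Rep 3, so the block sets that cell aside. It is therefore not independent of the fit without Single Cell Rep 3. The replicate numbers did not pair the samples, as deviations of the same number correlated at r = -0.06 to 0.04.

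DESeq2 called 1 member (JUN, 0 by edgeR) for single cells against 1000 cells, beside 1.02% of all genes, and against 10 cells, beside 0.561%. The replicate block gave 1 for the latter (EGR1, lower), beside 0.0331%. For 10 against 1000 cells 1 was called with DESeq2, beside 1.96%, and 1 without a filter, beside 0.621%. For 100 against 1000 cells 0 were called with all libraries kept. Both counts moved in fits that left a lone library in a group. Such a library is assumed to vary like the other group, and these counts are not reported here. A prior count of 0.5 left the 17 values that stood apart at 17.

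With all libraries thinned to the smallest total, JUN was at 1.13 (edgeR adjusted p = 0.0129), and 2 members were called beside 6.46% of all genes. Totals ranged only from 42842970 to 61645865 counts before thinning, so larger differences in depth were not tested. Levels of a few CPM rest on 3 single cells and on PCR without molecular identifiers, the effect of which was not tested.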
